A study of Cucumis sativus with 25 samples.

Results

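The 249 miRNAs counted in cucumber shoot apices were compared between plants grown at high and at low temperature, with the effect averaged over long and short days. A miRNA entered when its counts over the 12 small RNA libraries came to 10 or more, which kept 248 of 249. Of the table, 68 miRNAs belong to known families. The other 181 lie outside them and are written n-mir with the number the table gives. The plants were seedlings of the inbred line Chinese long 9930, described as about 4 weeks old. The paper defines sampling by leaf stage, with apices taken once 4 true leaves had unfolded. It gives no plant age for each temperature, so whether age differed between warm and cool plants was not tested. Each library held RNA pooled from many dissected apices. High temperature was 28 °C in the light and 25 °C in the dark, with 16 h of light (HL) or 8 h of light (HS). Low temperature was 20 °C in the light and 15 °C in the dark, again with 16 h (LL) or 8 h (LS) of light. Each treatment had 3 replicates, so 6 warm libraries stood against 6 cool libraries. The paired day and night temperatures moved together, so the effect of the day and of the night temperature cannot be told apart. Bulk apices also cannot tell fewer cells of a type from less miRNA per cell. The deposited gene IDs were not paired with gene names here, so the tissue label was not checked against marker genes.

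Plant miRNAs are cut from hairpin precursors by a Dicer-like enzyme and loaded into ARGONAUTE proteins, where they pair with nearly their whole length to target mRNAs. Most targets are then cleaved, and some are blocked in translation. In the shoot apex, conserved families set the passage from juvenile to adult growth, the boundaries between organs, the polarity of leaves and the response to auxin. Other families follow the supply of copper, phosphate or sulfate. The question of the comparison was which of all these miRNAs differed with growth temperature.

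Temperature moved a small part of the population, mostly toward lower levels at high temperature. The 10 most abundant miRNAs held no call, which is near the share called over all miRNAs. A miRNA was called when it differed over 2-fold with an unadjusted p under 0.001, which are the thresholds of the study. Of 248 miRNAs tested, 80 had an unadjusted p under 0.05 (32.3%) and 18 were called (7.26%), 3 higher (1.21%) and 15 lower (6.05%) at high temperature. With a Benjamini-Hochberg adjusted p under 0.05 and no fold threshold, edgeR's quasi-likelihood test passed 52 (21.0%), 14 higher (5.65%) and 38 lower (15.3%). The split between the directions depended on the scaling. The main values divide counts by clean reads, and under TMM scaling, which sets most miRNAs to no change, 6 were called higher and 12 lower, and 21 rose and 27 fell by adjusted p. The corresponding values by adjusted p were 25 and 30 in DESeq2, and 4 and 20 with the summed miRNA counts as library sizes. TMM scaling moved all log2 changes up by a median of 0.17, from a median of -0.11 over all 248 miRNAs to 0.05, so a median near 0 has no fixed sign.

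The sequences of the 18 called miRNAs are shown because these passed the thresholds of the study in the averaged comparison made here. They are not the study's own list, which came from comparisons between pairs of treatments. They are printed 5′ to 3′ as deposited, in DNA letters, with bases 2 to 8 in capitals. The deposited table does not name the arm of the hairpin. Those called lower at high temperature come first, known families before the others.
miR398: gAGTGAACctgagaacacaaga
miR860: tCAAAGATtggacaaaattat
miR530: tGCATTTGcacctacaccttc
miR7741: tGTTATTGtggaagttcttga
n-mir87: tGTGAATGaagcgggagatat
n-mir14: gAAATTTCaaagattactcgg
n-mir321: tTGAGCAAattgaagaattgaa
n-mir140: aAATATTAatccatgcttctcac
n-mir100: aGGGGTGTgttgactgtatagtt
n-mir66: tGGTTGAGctgatttaaggat
n-mir40: tCAAACTAtagaagcgattat
n-mir47: tTGAGCTGcattttagtttta
n-mir15: aAATACTGactagatccatgcag
n-mir95: tTCAATGActgaattgatgaa
n-mir51: aTTTAAAGagtagtcagtttg
Those called higher at high temperature were 1 known family and 2 n-mir.
miR399: tGCCAAAAgagacttgccctg
n-mir55: gTTGTGGTgcttggaggagggtg
n-mir97: tTTGTTGAtgatgctgttggt

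The 18 sequences had 18 different seeds, so none of the calls was a second member of a seed group. By length, 12 were 21 nt, 2 were 22 nt and 4 were 23 nt. Of the 249 miRNAs in the table, 118 were 21 nt, 24 were 22 nt, 92 were 23 nt and 15 were 20 nt. A 5′ T stood at the start of 11 of the 18 and of 157 of the 249 miRNAs in the table. The sequence deposited as miR398 is the strand opposite to the one usually named for the pairing with superoxide dismutase mRNAs.

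**Figure D1:**
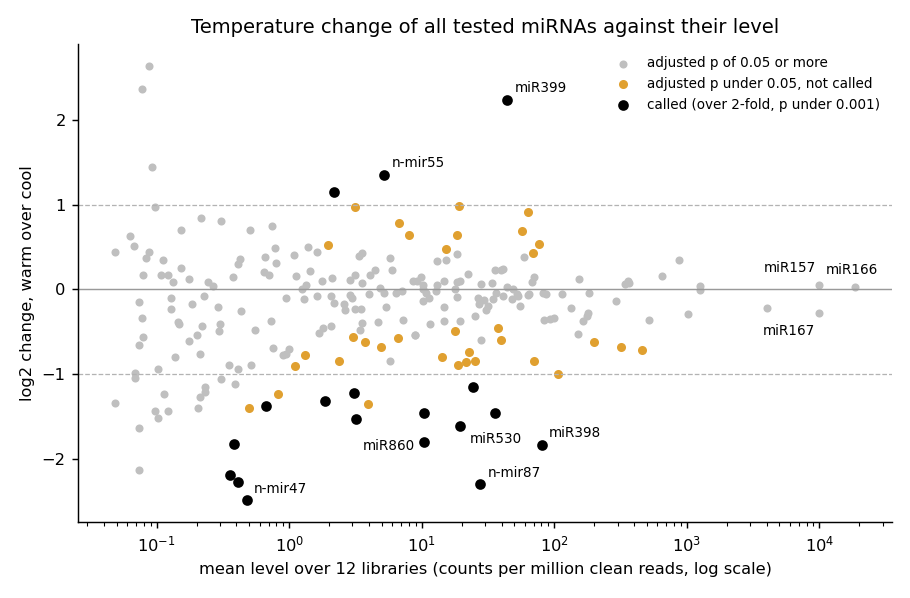
Log2 change at high over low temperature (vertical axis) against the mean level over the 12 libraries in counts per 1000000 clean reads (CPM, horizontal log axis), 1 point for each of 248 miRNAs. Black points are the 18 called miRNAs and orange points the other miRNAs with an adjusted p under 0.05. Dashed lines mark 2-fold. The most abundant families, miR166, miR157 and miR167, lie near 0.

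miR398 had the smallest p of all. In Arabidopsis it lowers copper/zinc superoxide dismutases when copper is short. Its level in counts per 1000000 clean reads (CPM) was 32.4, 37.9 and 29.0 in HL and 29.6, 36.4 and 41.4 in HS. It was 102, 85.4 and 106 in LL and 191, 127 and 144 in LS. Every warm library lay below every cool library. The log2 change was -1.83 ± 0.15 (SE, 6 against 6 libraries, adjusted p = 2.48e-06), a 3.57-fold lower level. The call held under all 23 alternatives tried, with adjusted p from 1.09e-29 to 0.00313.

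miR860 and n-mir321 fell by similar amounts and were less abundant than miR398. miR860 was at 4.61, 3.53 and 3.84 CPM in HL, 5.0, 5.05 and 5.91 in HS, 20.4, 12.5 and 16.0 in LL, and 19.2, 14.6 and 14.4 in LS. Its log2 change was -1.81 ± 0.16 (adjusted p = 3.51e-06). n-mir321 was at 5.44, 4.67 and 5.02 CPM in HL, 5.96, 5.69 and 6.39 in HS, 17.7, 12.5 and 13.2 in LL, and 18.4, 15.6 and 13.7 in LS. For both, the warm and the cool libraries did not overlap and the replicates of a treatment lay close together. The log2 change of n-mir321 was -1.46 ± 0.14 (adjusted p = 6.95e-06).

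miR530 and n-mir87 fell as well, but with widely scattered cool libraries. miR530 is known in rice, where it limits panicle branching and grain size. It was at 7.45, 8.63 and 8.44 CPM in HL and 11.9, 7.70 and 12.1 in HS, against 30.5, 13.5 and 20.7 in LL and 54.9, 18.8 and 39.8 in LS. The log2 change was -1.62 ± 0.26 (adjusted p = 0.000659). n-mir87 was at 7.87, 5.63 and 7.14 CPM in HL and 9.71, 10.5 and 15.3 in HS, against 52.6, 20.8 and 30.8 in LL and 108, 25.4 and 38.0 in LS. Neither miRNA overlapped between temperatures, and in each cool treatment the first library was the highest. The log2 change of n-mir87 was -2.31 ± 0.34 (adjusted p = 0.000354). Without those first libraries of LL and LS it was -1.67 (adjusted p = 1.84e-05), and that of miR530 was -1.27 (adjusted p = 0.000568).

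miR399 was the most abundant of the 3 miRNAs called higher and had the largest change among them. In Arabidopsis it is made when phosphate is short, moves from shoot to root in the phloem, and lowers a ubiquitin-conjugating enzyme that restrains phosphate uptake. Its level was 49.6, 51.4 and 84.2 CPM in HL and 55.6, 49.8 and 149 in HS. It was 20.5, 10.9 and 13.0 CPM in LL and 25.8, 10.3 and 11.0 in LS. The lowest warm library was still above the highest cool library, and HS-3 stood far above the other warm ones. The log2 change was 2.25 ± 0.33 (adjusted p = 0.000354), a 4.74-fold higher level, and the call held under all 23 alternatives.

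The other 2 miRNAs called higher were scarcer. n-mir55 ran from 4.85 to 9.37 CPM in the warm libraries (median 7.56) and from 1.78 to 4.97 in the cool ones (median 2.80), overlapping only through HS-3 and LS-1. Its log2 change was 1.36 ± 0.25 (adjusted p = 0.00151), and the call ended under 1 of 23 alternatives. n-mir97 ran from 1.32 to 5.15 CPM (median 2.89) against 0.708 to 1.85 (median 1.38), with more overlap. Its log2 change was 1.15 ± 0.27 (adjusted p = 0.00799), and the call remained without HL-2, HS-1 or LS-1 but ended when any of the other 9 libraries was omitted (log2 change 1.02 to 1.43).

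**Figure D2:**
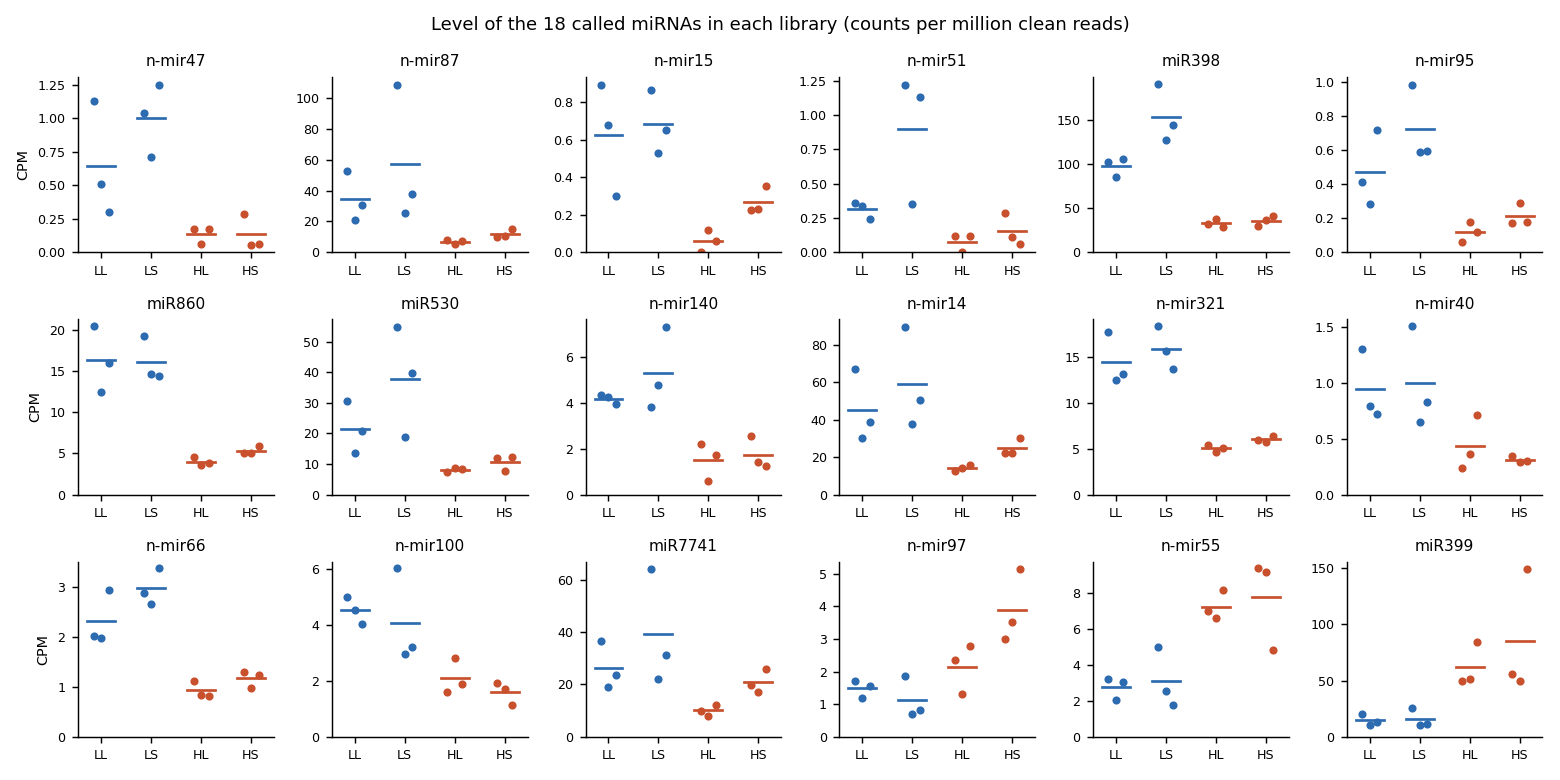
Level of the 18 called miRNAs in each of the 12 libraries, in counts per 1000000 clean reads (CPM, linear axis from 0), in order of their log2 change. Points are libraries, bars are means of 3, blue is low temperature (LL, LS) and orange is high temperature (HL, HS). Most are lower in the warm libraries. The warm and cool points of miR398, miR860 and miR399 do not overlap.

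Among the remaining miRNAs called lower, the more abundant ones were n-mir14 and miR7741. n-mir14 ran from 12.4 to 30.0 CPM in the warm libraries (median 19.0) and from 30.3 to 89.7 in the cool ones (median 44.5), with a log2 change of -1.46 ± 0.24 (adjusted p = 0.000659). miR7741 ran from 8.09 to 25.8 CPM (median 14.7) against 19.0 to 64.1 (median 27.5), and the ranges overlapped. The log2 change was -1.15 ± 0.25 (adjusted p = 0.00487). Without LL-1 and LS-1 it was -0.72, which is under 2-fold. Under TMM scaling it was -0.97, also under 2-fold. The call also ended when HL-1, HL-2, HS-1, HS-2, LL-1 or LS-1 alone was omitted (log2 change -0.88 to -1.29 over the 12 omissions).

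At a few CPM, n-mir140, n-mir100 and n-mir66 kept warm and cool apart, although n-mir100 overlapped under TMM scaling. n-mir140 ran from 0.599 to 2.56 CPM in warm and 3.82 to 7.31 in cool libraries, with a log2 change of -1.53 ± 0.28 (adjusted p = 0.00151). n-mir100 ran from 1.12 to 2.82 against 2.95 to 6.01 CPM, with a log2 change of -1.22 ± 0.23 (adjusted p = 0.0016). n-mir66 ran from 0.827 to 1.31 against 1.98 to 3.39 CPM, with a log2 change of -1.32 ± 0.19 (adjusted p = 0.000354). No role is given here for miRNAs outside the known families.

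The last 5 calls rested on few reads. n-mir47 had 1 to 5 counts in each warm library and 5 to 21 in each cool library, and n-mir15 had 0 to 6 against 5 to 15. n-mir95 had 1 to 5 against 5 to 17 counts, n-mir51 had 0 to 5 against 4 to 21, and n-mir40 had 4 to 12 against 11 to 26. All 5 were lower in most warm libraries, but of them only n-mir47 had no overlap in CPM, and it overlapped under TMM scaling. Their fitted log2 changes ranged from -1.38 (n-mir40, adjusted p = 0.00799) to -2.49 (n-mir47, adjusted p = 0.00151), and their size is uncertain where warm libraries had 3 counts or fewer. With 1 library omitted, the call of n-mir40 remained only without HL-3 or LS-2 (log2 change -1.17 to -1.65 over the 12 omissions). That of n-mir51 remained only without HS-1 or LS-2 (-1.92 to -2.57). That of n-mir95 ended without LL-3 (-1.62 to -2.03).

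Of the 18 called miRNAs, 11 had no overlap between the 6 warm and the 6 cool libraries, beside 26 of all 248 (10.5%), where 20 were lower (8.06%) and 6 higher (2.42%) at high temperature. After TMM scaling the count was again 26, with 13 lower (5.24%) and 13 higher (5.24%). The called miRNAs were a small fraction of all miRNA reads. Together they made up 0.31 to 0.401% of the miRNA counts in warm and 0.521 to 0.719% in cool libraries. Those called lower summed to 85.6 to 142 CPM in warm and 207 to 564 in cool libraries. Those called higher summed to 58.9 to 159 CPM in warm and 13.5 to 32.7 in cool libraries. The 18 were chosen for their difference between these same libraries. The separation of these shares and sums therefore follows largely from that choice and is only a description of size.

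Another 34 miRNAs passed an adjusted p of 0.05 without being called, and 31 of them differed by 2-fold or less, 11 higher and 20 lower. A pair of families came close to the fold threshold with tight replicates. miR8125 was at 99.8, 85.9 and 79.6 CPM in HL and 83.5, 81.3 and 64.4 in HS, against 36.5, 43.5 and 42.9 in LL and 38.8, 52.9 and 46.9 in LS, with no overlap. The log2 change was 0.92 ± 0.13 (adjusted p = 0.000354), and 1.08 under TMM scaling. miR6421 ran from 35.2 to 56.8 CPM in warm and 74.5 to 120.3 in cool libraries, with a log2 change of -0.84 ± 0.15 (adjusted p = 0.00143). No role is given here for either family.

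Some miRNAs outside the known families differed by less than 2-fold without overlap, and these were picked after their values were seen. n-mir318 ran from 184 to 288 CPM in warm and 318 to 442 in cool libraries, with a log2 change of -0.68 ± 0.14 (adjusted p = 0.00328). n-mir124 ran from 127 to 183 against 191 to 293 CPM, with a log2 change of -0.62 ± 0.14 (adjusted p = 0.00724). n-mir257 was higher in all warm libraries, 7.79 to 9.53 against 4.10 to 6.08 CPM, with a log2 change of 0.78 ± 0.14 (adjusted p = 0.00151). Under TMM scaling the log2 changes of n-mir318, n-mir124 and n-mir257 were -0.50, -0.46 and 0.94, and n-mir124 overlapped.

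The 10 most abundant miRNAs did not include any call, which in so few is near the share over all (18 of 248, 7.26%). miR166, which limits the HD-ZIP III factors that shape the upper side of leaves and the meristem, was the most abundant at 11837 to 28743 CPM in warm and 12947 to 25282 in cool libraries. The fit gave a log2 change of 0.03 ± 0.31 (adjusted p = 0.95). miR157 and miR167 followed, at 4161 to 21879.6 and 5939 to 12761 CPM in warm and 3871 to 18622 and 5399.9 to 21892 in cool libraries. Their log2 changes were 0.06 ± 0.32 and -0.28 ± 0.36. The warm and cool ranges of all 3 families overlapped widely. Changes the size of these standard errors, and changes well above them, would not have passed.

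The other abundant miRNAs gave the same picture. miR4414 had a log2 change of -0.22 ± 0.30, miR156 of 0.05 ± 0.29, miR164 of -0.00 ± 0.38, miR168 of -0.29 ± 0.24, miR390 of 0.34 ± 0.23 and miR172 of 0.16 ± 0.28. The adjusted p of these 6 lay between 0.373 and 0.997. n-mir166 was the exception in its spread. It ran from 408 to 511 CPM in warm and 517 to 649 in cool libraries without overlap, with a log2 change of -0.36 ± 0.13 that did not pass (adjusted p = 0.0852), and the libraries overlapped after TMM scaling. Without LL-1 and LS-1 its log2 change was -0.42 and passed (adjusted p = 0.0351). With a block for the replicate number it was -0.35 and passed (adjusted p = 0.0427). Under TMM scaling it was -0.19 and did not pass (adjusted p = 0.415).

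Known families with established targets were grouped into 6 lists with 23 members, all of them tested. In all, 1 of the 23 rose, 2 fell and 20 did not pass an adjusted p of 0.05 (13.0% passed, beside 21.0% of all miRNAs). The median log2 change was -0.20, beside -0.11 over all miRNAs tested.

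The phase change list held miR156 and miR157, which limit SPL factors and keep a plant juvenile, and miR172, which limits APETALA2-like repressors of flowering. None of the 3 passed, and their log2 changes lay between 0.05 and 0.16 (median 0.06). miR172 was at 564 to 903 CPM in warm and 315 to 1108 in cool libraries. With LL-1 and LS-1 left out its log2 change was 0.64 (adjusted p = 0.0341).

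The list of meristem, leaf and flower development held 6 families, none of which passed (median log2 change -0.13). miR159, which limits GAMYB factors, was at 20.6 to 315 CPM in warm and 62.2 to 195 in cool libraries, with a log2 change of -0.06 ± 0.44. miR164, which limits the CUC factors of organ boundaries, and miR166 are given above. miR171, which limits HAIRY MERISTEM factors, was at 26.8 to 37.9 against 28.6 to 40.8 CPM in warm and cool libraries (log2 change -0.20 ± 0.14, adjusted p = 0.378). miR394, which limits the F-box protein LCR and supports stem cells in Arabidopsis, varied from 0.623 to 19.9 CPM with no order by treatment (log2 change -0.54 ± 0.66). miR396 limits growth-regulating factors and had a log2 change of -0.36 ± 0.31.

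The auxin list held miR160 and miR167, which limit auxin response factors, miR390, which starts the trans-acting siRNAs against other auxin response factors, and miR393, which limits the auxin receptors. None of the 4 passed (median -0.20). miR160 was at 81.3 to 175 CPM in warm and 75.4 to 283 in cool libraries (log2 change -0.52 ± 0.26, adjusted p = 0.176). miR390 had a log2 change of 0.34 ± 0.23 and miR393 of -0.11 ± 0.49. For miR160, miR396 and miR408, as for miR398, the deposited sequence is the strand opposite to the one usually named for target pairing.

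Of the 3 copper miRNAs, only miR398 passed. miR397, which limits laccases, was at 0.419 to 0.886 CPM in warm and 0.649 to 1.91 in cool libraries (log2 change -0.77 ± 0.31, adjusted p = 0.106). miR408, which limits plantacyanin and laccases, was at 8.16 to 19.4 against 5.55 to 26.4 CPM, with a log2 change of -0.02 ± 0.32 (adjusted p = 0.961). The list median of -0.77 is thus that of miR397.

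Of the 5 miRNAs of nutrient starvation, only miR399 passed. miR2111, another phosphate-responsive miRNA, was at 65.3 to 107 CPM in warm and 59.9 to 178 in cool libraries (log2 change -0.35 ± 0.24, adjusted p = 0.393). miR827, which limits SPX-domain proteins of phosphate balance, had a log2 change of 0.50 ± 0.53 (adjusted p = 0.614) for the average. miR169, which limits NF-YA factors, was at 128 to 210.4 against 97.4 to 295 CPM (log2 change -0.28 ± 0.25). miR395, which limits ATP sulfurylases of sulfate assimilation, had only 0 to 3 counts in every warm library and 1 to 13 in the cool ones, and it did not pass (adjusted p = 0.123).

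The last list held the miRNAs that act on the miRNA machinery itself. miR162, which limits DICER-LIKE 1, fell at high temperature. It was at 8.22, 8.39 and 12.6 CPM in HL and 16.4, 12.9 and 21.2 in HS, against 25.7, 13.9 and 19.6 in LL and 40.5, 19.2 and 25.7 in LS, so the ranges overlapped. The log2 change of miR162 was -0.89 ± 0.22 (adjusted p = 0.0102), under 2-fold and not called. Without LL-1 and LS-1 it was -0.60 (adjusted p = 0.0272). miR168, which limits ARGONAUTE 1, did not pass (adjusted p = 0.488).

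**Figure D3:**
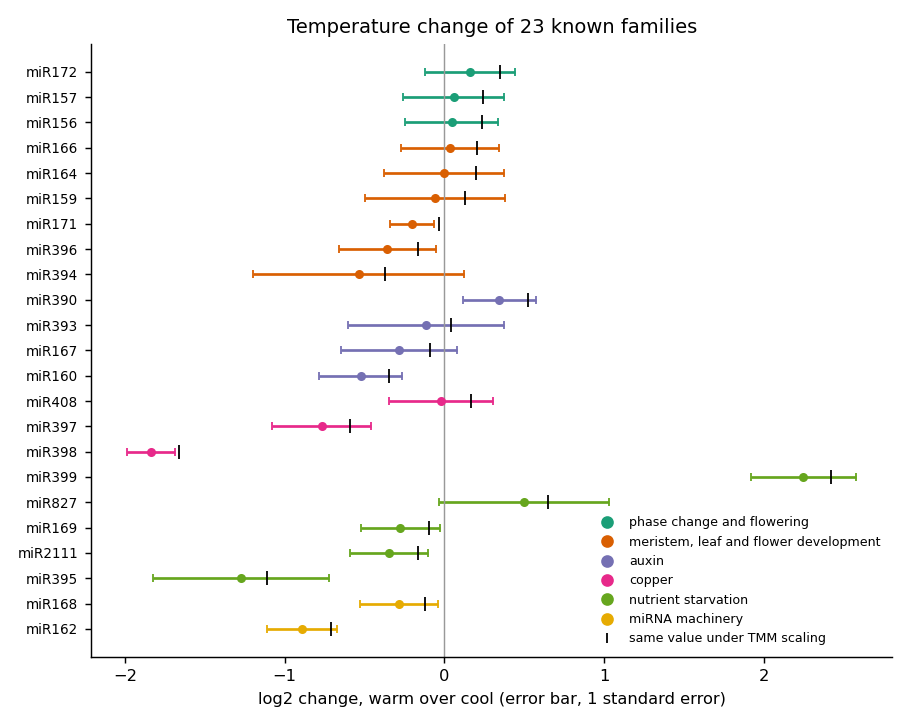
Log2 change at high over low temperature of 23 known families, coloured by the 6 lists. Points are the values with clean reads as library sizes, bars are 1 standard error and black ticks are the values under TMM scaling. miR398, miR399 and miR162 are the 3 with an adjusted p under 0.05.

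The known families outside the lists and the miRNAs outside known families also held changes in both directions. Of 45 other known families, 5 rose and 7 fell by adjusted p (median log2 change -0.05), which turned to 8 higher and 5 lower under TMM scaling (median 0.11). Of the 180 tested outside known families, 8 rose and 29 fell (median -0.12), and 12 and 20 under TMM scaling (median 0.05). By length, 7 rose and 19 fell of 118 miRNAs of 21 nt, none rose and 7 fell of 23 of 22 nt, and 7 rose and 11 fell of 92 of 23 nt. Of 15 miRNAs of 20 nt, 1 fell. The shares that passed were 22.0% of 21 nt, 30.4% of 22 nt, 19.6% of 23 nt and 6.67% of 20 nt. Over all 248 miRNAs 21.0% passed, 5.65% higher and 15.3% lower. In so few miRNAs of 22 nt, none higher is near the overall share. The median log2 changes of the lengths were -0.22, -0.09, -0.05 and -0.21 in the same order, and under TMM scaling -0.05, 0.09, 0.12 and -0.04. Under TMM scaling the counts were 9 higher and 14 lower of 21 nt, 2 and 6 of 22 nt, 10 and 7 of 23 nt, and none of 20 nt, so the direction turned for 23 nt.

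The share that passed depended on the level. The miRNAs were split by mean level into 4 bins of 62. In the lowest bin (0.0488 to 0.414 CPM), 3 of 62 passed. In the next bins 16, 19 and 14 of 62 passed, where the highest bin began at 29.3 CPM. The median size of the log2 change was 0.64 in the lowest bin and 0.22 in the highest. Over all miRNAs it was 0.37, and 61.7% of the 248 changed by less than 0.5. The least abundant member that entered the test was at the threshold with 10 counts (n-mir68 and n-mir116, with fitted log2 changes of -1.34 and 0.44), and the only miRNA outside it was n-mir28 with 5 counts.

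Among the miRNAs in the table, 12 seeds were shared by more than 1 miRNA, covering 26 of the 249, and 1 pair, n-mir59 and n-mir60, had the same sequence, so their counts of 21 and 16 are uncertain. A trio is shown because members with the same seed went in opposite directions.
n-mir250: tGAGAAGAcgagtagaaggaaaa
n-mir185: tGAGAAGAagtagaagagaaatt
n-mir219: cGAGAAGAagaagaatgacataa
n-mir250 was at 28.0, 30.0 and 27.8 CPM in HL, 26.7, 25.2 and 16.0 in HS, 14.8, 9.12 and 14.1 in LL, and 16.9, 11.8 and 10.0 in LS. The log2 change of n-mir250 was 0.99 ± 0.18 (adjusted p = 0.00151). n-mir185 ran from 0.118 to 0.473 CPM in warm and 0.283 to 1.16 in cool libraries, with a log2 change of -1.40 ± 0.36 (adjusted p = 0.0126), and -1.09 (adjusted p = 0.0645) without LL-1 and LS-1. n-mir219 had a log2 change of 0.25 ± 0.12 that did not pass (adjusted p = 0.188). The trio was chosen after its values were seen, and the seed alone covers only part of a plant miRNA's pairing.

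The temperature effect was then followed in each day length. These 2 comparisons share no library, although the scaling and the dispersion estimate are common to both. Cool libraries of the same number also deviated together from their treatment means. The r was 0.763 for LL-1 and LS-1, 0.705 for LL-2 and LS-2 and 0.47 for LL-3 and LS-3. Under TMM scaling it was 0.542, 0.273 and 0.173. The 2 comparisons are therefore not fully independent. In short days (HS against LS), 10 of 248 were called (4.03%), 2 higher (0.806%) and 8 lower (3.23%), and 30 passed by adjusted p (12.1%), 8 higher (3.23%) and 22 lower (8.87%). In long days (HL against LL), 10 were called (4.03%), 3 higher (1.21%) and 7 lower (2.82%), and 23 passed by adjusted p (9.27%), 8 higher (3.23%) and 15 lower (6.05%). In short days the direction of the calls depended on the scaling, with 8 higher and 7 lower under TMM scaling and in DESeq2. In long days TMM scaling gave 4 higher and 7 lower.

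Of the miRNAs called within a day length, 6 were called in both, 4 only in short days and 4 only in long days. The 6 were miR398, miR860, miR399, n-mir321, n-mir66 and n-mir87. The log2 change of miR398 was -2.10 ± 0.21 in short and -1.57 ± 0.21 in long days, and that of miR399 was 2.43 ± 0.47 and 2.06 ± 0.46. miR860 had -1.59 ± 0.22 and -2.02 ± 0.23. The adjusted p of these 3 in either day length lay between 3.59e-05 and 0.0135. n-mir87 had -2.28 ± 0.47 and -2.33 ± 0.48 in short and long days.

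A call in a single day length did not mean that the day lengths differed. miR530, n-mir47, n-mir97 and miR6421 were called in short days only, and n-mir14, n-mir15, miR8125 and n-mir250 in long days only. miR6421 had a log2 change of -1.07 ± 0.21 in short and -0.61 ± 0.21 in long days, and miR8125 had 0.73 ± 0.18 and 1.11 ± 0.19. The difference between the day lengths was tested as an interaction. No miRNA was called or passed an adjusted p of 0.05 in edgeR (0 of 248), where the smallest adjusted p was 0.937 and 11 had an unadjusted p under 0.05 (4.44%). DESeq2 passed 0 as well.

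Across all 248 miRNAs the change in short days and the change in long days had a Pearson r of 0.42 and a Spearman rho of 0.53. Over the 165 miRNAs with a mean of at least 1 CPM, r was 0.78 and rho 0.73. Over the 196 that did not pass for the average, r was 0.11. Those 196 were selected by the average of the same short-day and long-day changes, and such a selection itself tends to lower r. The value of 0.11 therefore cannot show whether the day lengths shared changes among them. These correlations are descriptions across miRNAs, which share depth and scaling and are not replicates. The sign was the same in both day lengths for 168 miRNAs (67.7%).

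**Figure D4:**
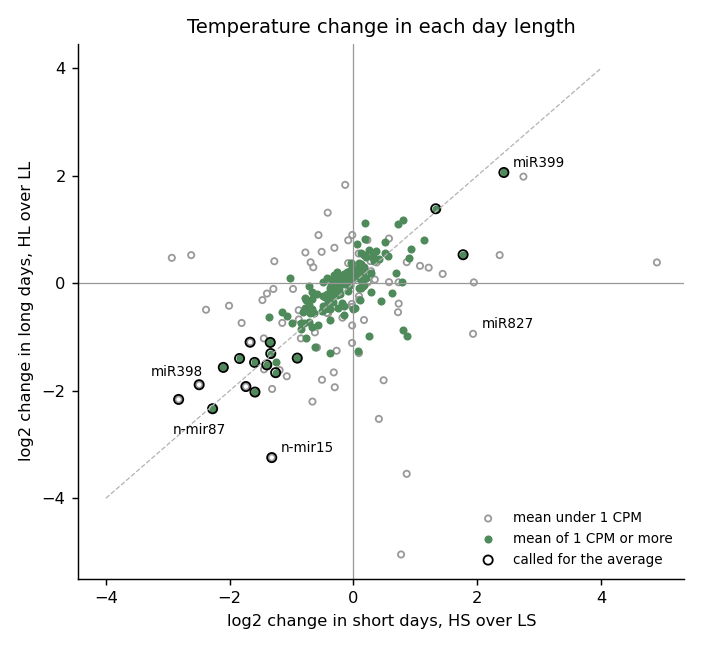
Fitted log2 change at high over low temperature in short days (HS over LS, horizontal) and in long days (HL over LL, vertical), 1 point for each of 248 miRNAs. Green points have a mean of at least 1 CPM, open grey points less, and black rings mark the 18 called for the average. The dashed line marks equal change. Most ringed points lie at the lower left, below 0 on both axes.

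miR827 went opposite ways in the day lengths, without overlap in either. In short days it had 29, 17 and 67 counts in HS against 9, 7 and 13 in LS, with a log2 change of 1.93 ± 0.47 (adjusted p = 0.0167). In long days it had 2, 1 and 3 counts in HL against 4, 4 and 4 in LL, where no fold is given because HL was at or under the floor of 3 counts. The interaction did not pass after adjustment (unadjusted p = 0.0105, adjusted p = 0.937). The other 2 miRNAs with the smallest interaction p were rarer. n-mir107 had 2, 1 and 1 counts in HL, 6, 2 and 11 in HS, 11, 5 and 9 in LL, and 5, 5 and 4 in LS (unadjusted p = 0.00579). n-mir4 had 0 to 4 counts in any library (unadjusted p = 0.0128). The adjusted p of both was 0.937.

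The libraries as wholes separated by temperature, with some that stood apart. Clean reads were 16634520 to 17659346 per library, and summed miRNA counts were 609415 to 1551482, or 3.6 to 8.97% of them. Summed known families ran from 31518 to 84332 CPM, from LS-1 at the top to HL-1 at the bottom, and overlapped between temperatures. Summed counts outside known families were at 4360.1 to 4911.7 CPM in warm and 4695.4 to 5707.5 in cool libraries. On log2(CPM + 1), the first principal component held 43.2% of the variance. All warm libraries scored above all cool ones on it, from 1.13 to 4.74 against -7.73 to 0.20. LL-1 and LS-1 lay apart from the other cool libraries, at -5.73 and -7.73. Without these 2 libraries, 4 miRNAs were called higher and 10 lower, 13 of the 18 among them, and 13 rose and 40 fell by adjusted p. The 5 calls lost were miR7741, n-mir100, n-mir95, n-mir40 and n-mir51, and n-mir250 was gained.

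**Figure D5:**
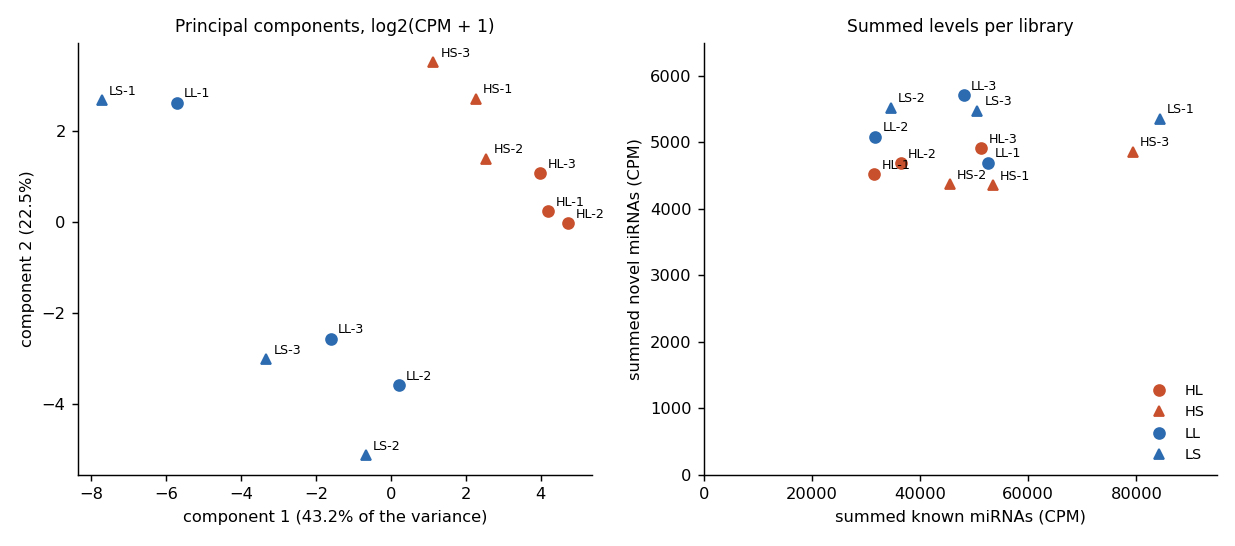
Left, the 12 libraries on the first 2 principal components of log2(CPM + 1) over 248 miRNAs. Right, summed miRNAs outside known families against summed known families in each library, in CPM, on linear axes from 0. Orange is high and blue low temperature, circles are long and triangles short days. LL-1 and LS-1 lie at the far left of the first component.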

How the data were processed

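The values are counts of small RNA tags per mature miRNA, deposited by the authors without normalization. Before that, they trimmed and filtered the reads, mapped the tags to the cucumber genome and summed them per mature miRNA. The study used 1 member where precursors shared a mature sequence, but 1 pair with the same sequence is in the table. The counting tool for the small RNAs is not given in the sources used here. Treatments and replicate numbers come from the sample titles. Per-sample count columns left out numbered 0. The mRNA and degradome files were not used.

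CPM are counts per 1000000 clean reads, with the clean reads from the study's table of libraries. Tests were two-sided, from a single edgeR 4.0.16 quasi-likelihood fit of all 4 treatments on miRNAs with 10 or more summed counts, with Benjamini-Hochberg adjustment over all 248 miRNAs. The temperature effect is the mean of HL and HS minus the mean of LL and LS. Each SE was obtained from the log2 change and its F statistic. A call is over 2-fold with an unadjusted p under 0.001. The floor was 3 counts, for counting error only.

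The miRNAs named are all called ones, the 10 most abundant, the 23 of the role lists, those called in a single day length, and the 3 with the smallest interaction p. Others are marked as chosen after their values were seen. The members and lists were chosen with earlier results of these data known.

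Alternatives were TMM scaling, summed miRNA counts as library sizes, DESeq2 1.42.0, omission of the count filter, a stricter filter (10 counts in 3 libraries), limma 3.58.1 on log2(CPM + 1), a replicate block, other call rules, and libraries left out. Leaving out LL-1 and LS-1 together was chosen after seeing the data. The fits were tested on simulated data. R 4.3.3 and Python 3.11.15 were used.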

Additional observations from a re-analysis of the deposited data

Results flagged for a closer look

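miR827 was singled out because its temperature difference went opposite ways in the 2 day lengths without overlap in either. With 3 libraries against 3, such separation can also arise without any effect. The share of the 248 miRNAs with this pattern is not given here. All HS libraries lay above all LS libraries (1.65, 0.976 and 3.96 against 0.520, 0.413 and 0.772 CPM), and all HL libraries lay below all LL libraries (0.118, 0.0599 and 0.177 against 0.237, 0.227 and 0.240 CPM). The fitted interaction was -2.87 ± 0.97 on the log2 scale (unadjusted p = 0.0105, adjusted p = 0.937), so it did not pass the correction over 248 miRNAs. Its size rests on long-day libraries with 1 to 4 counts each, and HL was at or under the floor of 3 counts.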

How the results depend on the processing

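The counts called for the average were 3 higher and 15 lower. They moved to 6 higher under TMM scaling and in DESeq2, to 7 lower in limma, and to 14 higher and 38 lower by adjusted p under 0.05 alone. Leaving out a library or the 4 libraries of a replicate number gave 1 to 4 higher and 5 to 17 lower, with the fewest higher without replicate 2 and the fewest lower without replicate 3. The short-day counts (2 higher, 8 lower) moved to 8 higher under TMM scaling and in DESeq2, 4 with a replicate block, 5 without LL-1 and LS-1, 8 higher and 22 lower by adjusted p, and 5 higher and 15 lower with 2-fold added. They ranged from 0 to 5 higher and 3 to 13 lower with libraries left out. The long-day counts (3 higher, 7 lower) moved to 1 higher with summed miRNA counts, 5 in DESeq2, 8 higher and 15 lower by adjusted p, and 5 higher and 13 lower with 2-fold added. They ranged from 0 to 5 higher and 3 to 10 lower with libraries left out. For the interaction, 0 to 1 were called in these fits. Fewer libraries entered these last fits, and the cause was otherwise not tested.

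The 18 called miRNAs kept their direction in every alternative that fitted them, which was 23 for each except n-mir51 with 22, since the stricter filter left it out. The calls were less stable. They ended under 19 alternatives for n-mir40, 16 for n-mir51, 13 for n-mir97 and 12 for miR7741. They ended under 5 for n-mir100 and n-mir95, 4 for n-mir15, 3 for n-mir47, and 2 for n-mir66 and n-mir140. For miR530, n-mir14 and n-mir55 it was 1, and for miR398, miR860, miR399, n-mir321 and n-mir87 it was 0. Among the miRNAs named, only changes that were not called reversed. The called ones were chosen for large changes in the same libraries, so this contrast follows largely from the choice. The value for miR164 became 0.20 under TMM scaling, 0.18 with summed counts, 0.14 in DESeq2, 0.19 in limma, 0.17 with the replicate block and 0.65 without LL-1 and LS-1. miR408 became 0.17, 0.11, 0.12, 0.10, 0.0789 and 0.56 in the same order. miR159 became 0.13 under TMM scaling, 0.00973 with summed counts, 0.0615 in DESeq2 and 0.53 without LL-1 and LS-1. miR393 became 0.0404 under TMM scaling and 0.0135 in DESeq2, and miR166 became -0.0017 in limma. Without LL-1 and LS-1, miR167 became 0.31, miR4414 0.0832, miR396 0.17, miR2111 0.0452 and miR169 0.13. With libraries left out, the ranges were -0.19 to 0.27 for miR166, -0.18 to 0.56 for miR157, -0.61 to 0.31 for miR167, -0.54 to 0.26 for miR4414, -0.19 to 0.56 for miR156, -0.25 to 0.57 for miR164, -0.056 to 0.64 for miR172, -0.57 to 0.94 for miR159, -1.16 to 0.00838 for miR394, -0.62 to 0.27 for miR396, -0.50 to 0.42 for miR393, -0.37 to 0.55 for miR408, -0.54 to 0.19 for miR169 and, in short days, -0.35 to 0.89 for n-mir107.

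Libraries with the same replicate number were not taken as pairs. Their deviations from the treatment means had a mean r of 0.26 over 18 pairs (-0.07 to 0.76), and 14 of 18 exceeded 0.1. Pairs with different numbers had a mean r of -0.12 (-0.72 to 0.33), and 9 of 36 exceeded 0.1. Deviations cancel within each treatment, so this mean tends to be negative when that for the same numbers is positive. The values for different numbers are thus not a separate contrast. Under TMM scaling the mean r was 0.09 for the same and -0.04 for different numbers. A shared deviation by replicate number is therefore possible, and the main fit does not model it. A replicate block called 4 higher and 15 lower for the average, 17 of the 18 among them, and 16 higher and 42 lower by adjusted p, with n-mir166 among these (adjusted p = 0.0427). Depth limits the rarest miRNAs, where few counts stood behind each value.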
